A study of Mus musculus with 4 samples.

Results

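Interferon-stimulated genes and interferon GTPases are 40 mouse genes taken by symbol from a fixed list, and all 40 were found among the 25239 genes of the count tables. All 40 also had enough counts to be tested, among 13963 genes tested in all. They were read as 2 classes: 11 GTPases of the immunity-related (IRG) and guanylate-binding (GBP) families, and 29 type I antiviral genes. Liver RNA came from C57BL/6 mice aged 6 to 8 weeks, gavaged for 3 weeks with saline (control) or with Gynura segetum extract (30 g/kg each day, from a stock of 2 g/mL). This medicinal plant is rich in pyrrolizidine alkaloids, which injure the liver, and the series title names ADAMTS13 and platelets in that injury. There were 2 control and 2 extract libraries of whole liver, with 32215268 to 49711750 reads counted to genes. No label says that the libraries of a group came from different mice, so p-values measure the spread between these libraries, which may be technical.

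Interferons are secreted cytokines that make cells resist infection. Type I interferons act through the receptor pair Ifnar1 and Ifnar2 and a transcription factor complex that holds Stat2 and Irf9 and binds the interferon-stimulated response element (ISRE) of antiviral genes. Interferon gamma, made mainly by T and NK cells, acts through the receptor pair Ifngr1 and Ifngr2 and the gamma-activated site (GAS) of its target genes, and the IRG and GBP families are known for their strong response to it. IRG and GBP proteins assemble on the vacuoles of intracellular microbes, and in liver both hepatocytes and macrophages can express them.

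Promoters of the members were read from RefSeq (GRCm38.p6) as windows of 300 bases, from 250 before the start of a gene to 50 after it, which held 36 windows for 31 of the 40 members. The ISRE core was searched as a pair of GAAA units with 2 bases between them, and the GAS as TTCNNNGAA, each on both strands, so that an ISRE core and a GAS may overlap. The ISRE core lay in the windows of 20 of the 31 genes, or 58.3% of windows against 3.44% of all 32851 promoter windows. By class, 8 of 9 GTPases and 12 of 22 type I antiviral genes held it. Iigp1, Gbp6 and Usp18 were among the members without a window, and the window of Ifi47 held neither motif. A GAS lay in the windows of 11 of the 31 genes, 5 of 9 GTPases and 6 of 22 type I antiviral genes, or 30.6% of windows against 8.30% of all. Matches of letters describe the windows and are not binding sites. The stretches that follow are shown because Igtp, Irgm2, Tgtp1 and Tgtp2 share 1 layout, a GAS and then an ISRE core with 2 bases between them, in a stretch that is nearly the same in all 4 genes. Capitals mark the matched letters, and each stretch is 37 bases of the gene's own strand, 5′ to 3′.
Igtp, chr11:58199503-58199539, plus strand: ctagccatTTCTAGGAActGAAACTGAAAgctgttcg
Irgm2, chr11:58214894-58214930, plus strand: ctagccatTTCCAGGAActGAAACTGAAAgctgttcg
Tgtp1, chr11:48992306-48992342, minus strand: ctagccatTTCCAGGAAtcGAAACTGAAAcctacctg
Tgtp2, chr11:49064265-49064301, minus strand: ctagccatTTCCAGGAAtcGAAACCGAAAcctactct

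That spacing was searched after it had been seen in these genes. It occurred in 5 of the 32851 windows (0.0152%), those of the 4 members and of Gm12185, a neighbour that shares sequence with the Tgtp genes. Irgm1 and Gbp2, and the type I antiviral genes Isg15 and Ifit1, are shown for contrast, with ISRE cores in capitals and no GAS. In Gbp2 and Ifit1 the core lies on the other strand and reads as TTTC units.
Irgm1, chr11:48871427-48871458, minus strand: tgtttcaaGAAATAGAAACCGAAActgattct
Gbp2, chr3:142620596-142620621, plus strand: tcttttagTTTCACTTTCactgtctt
Isg15, chr4:156200867-156200904, minus strand: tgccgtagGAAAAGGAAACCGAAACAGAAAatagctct
Ifit1, chr19:34640777-34640821, plus strand: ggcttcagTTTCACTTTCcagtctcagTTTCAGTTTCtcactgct

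The control libraries differed from each other in many of these genes, and this touches the results for them. In some members they lay close together, among them Iigp1, Oasl1 and Stat2 (ratios of replicate 1 to replicate 2 of 1.10, 1.03 and 0.964). Levels are given as CPM, each gene's count divided by the library's gene total and put on a common scale with TMM factors, which correct for composition. Control replicate 1 was the highest of the 4 libraries for 29 of the 40 members, against 29.02% of all genes tested, and above control replicate 2 for 37, against 53.0%. It was at least 2-fold above control replicate 2 for 7 members, or 17.5%, against 9.04% of all genes tested. The members' median ratio between the control libraries was 1.64, against 1.02 over all genes tested, and 1.83 for the GTPases alone. The extract libraries lay closer together, with 1 member 2-fold apart, Mx1 (5.8% of all genes tested), and a median ratio of 0.913 for replicate 1 over replicate 2. As a check of the liver label, all 12 hepatocyte markers on a fixed list had counts in each library. Their sum was 174010 and 184320 CPM in control and 115470 and 122020 CPM after extract. Of the 12, 4 were lower (3.63% of all genes tested), and their part in the results was not tested. In whole liver, fewer cells of a type and less RNA per cell cannot be told apart.

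After the extract, the GTPase genes Iigp1, Ifi47, Irgm1 and Gbp6 and the antiviral gene Oas3 fell, and the antiviral genes Oasl1 and Usp18 rose, at an adjusted p under 0.05 in edgeR's quasi-likelihood test over all genes. That is 5 of 40 members lower, where 3.63% of all genes tested were lower, and 2 of 40 higher, where 4.91% were. Scaled by total counts alone, under which the median log2 fold change of all genes was 0.16, the split over all genes moved from 686 higher and 507 lower to 940 (6.73%) and 338 (2.42%), and 2 members were higher and 3 lower. By class, 4 of 11 GTPases were lower and 0 higher, and 1 of 29 type I antiviral genes was lower and 2 were higher. The median log2 fold change was -1.51 for the GTPases, -0.29 for the type I antiviral genes and -0.0047 over all genes tested. Both extract libraries lay below both controls for 8 of 11 GTPases and 10 of 29 type I antiviral genes, against 26.7% of all genes tested, and above both for 0 and 6, against 27.6%. With control replicate 1 left out the medians were -0.22 for the GTPases and 0.10 for the type I antiviral genes.

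**Figure D1:**
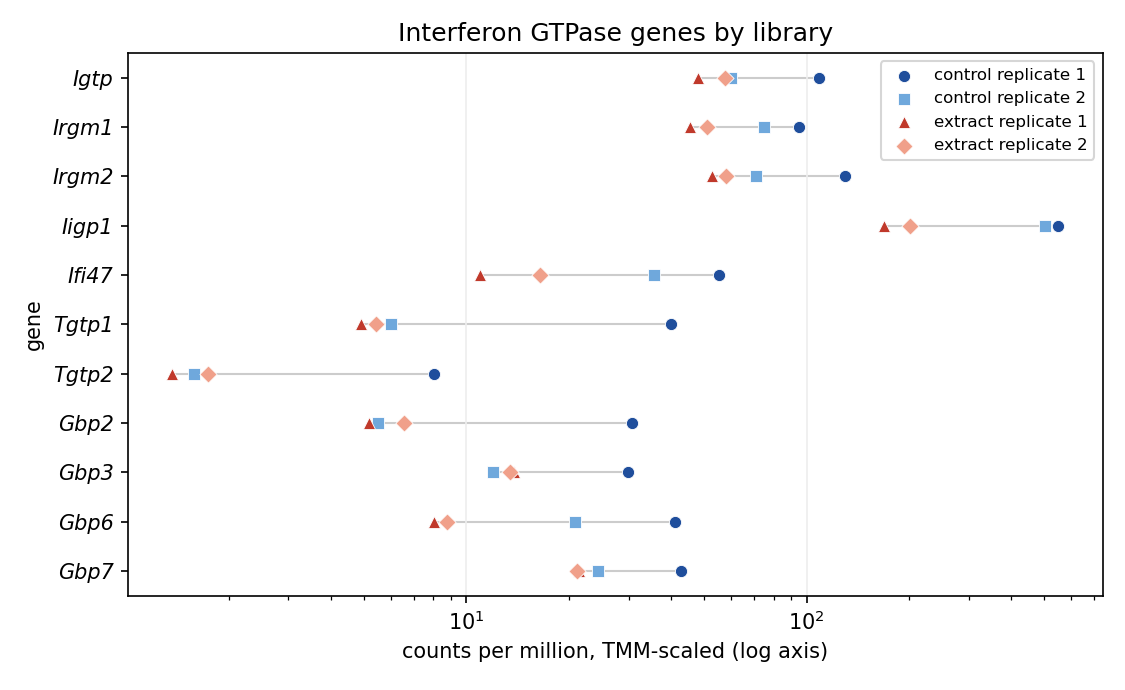
Level of the 11 IRG and GBP genes in each library, in TMM-scaled CPM on a log axis, with 1 point per library and a grey line over the range. Control replicate 1 is the highest point in every row, and in the row of Iigp1 both control points (549 and 501 CPM) lie far above both extract points (168 and 201 CPM).

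Iigp1, an IRG effector that coats the vacuoles of parasites, was the most abundant GTPase gene here by count and showed the steadiest difference. The gene lies on chromosome 18 (60373616 to 60392634, mm10). It stood at 549 and 501 CPM in the control libraries and at 168 and 201 CPM in the extract libraries. The controls were thus within 1.10-fold of each other, with no overlap between the groups. Iigp1 fell 2.84-fold, from 525 ± 34.2 to 185 ± 23.3 CPM (SD, n = 2). On the log2 scale the change was -1.51 (SE 0.16), at an edgeR adjusted p of 0.00336. It was the 1 member past the threshold in all 15 fits run.

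Ifi47, another IRG effector on chromosome 11 (49076587 to 49096987), stood at 55.2 and 35.7 CPM in control and at 10.9 and 16.5 CPM after extract. With no overlap between the groups, Ifi47 fell 3.32-fold (log2 fold change -1.73, SE 0.29, edgeR adjusted p = 0.0196). Irgm1 belongs to the regulatory IRG proteins, which hold the effectors inactive on the cell's own membranes and take part in autophagy. Its gene, on chromosome 11 (48865245 to 48871420), stood at 95.0 and 74.7 CPM in control and at 45.5 and 50.8 CPM after extract. Irgm1 fell 1.76-fold (log2 fold change -0.82, SE 0.17, edgeR adjusted p = 0.0300), but with 1 extract library left out its adjusted p was 0.258 (without replicate 1) or 0.128 (without replicate 2).

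Gbp6, a guanylate-binding protein gene on chromosome 5 (105270702 to 105295871), stood at 41.0 and 20.8 CPM in control and at 8.02 and 8.75 CPM after extract. It fell 3.69-fold (log2 fold change -1.88, SE 0.33, edgeR adjusted p = 0.0236), and its adjusted p rose to 0.114 and 0.0882 when extract replicate 1 or 2 was dropped. Of the 75-base stretches in its transcripts, 67.3% also occur in other genes, among them Gbp10 and Gbp11, so reads of these genes may not be told apart.

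The other 7 GTPases were past the threshold against control replicate 1 alone and not against control replicate 2 alone (edgeR adjusted p of 0.0774 to 0.982). Igtp, a regulatory IRG gene next to Irgm2, stood at 109 and 59.8 CPM in control and at 48.1 and 57.5 CPM after extract (log2 fold change -0.68, edgeR adjusted p = 0.231). Its neighbour Irgm2, also regulatory, stood at 129.6 and 71.0 CPM in control and at 52.7 and 58.1 CPM after extract (log2 fold change -0.86, edgeR adjusted p = 0.139). In both genes the extract libraries lay below both controls, and control replicate 1 stood 1.82-fold and 1.83-fold above replicate 2.

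Tgtp1 and Tgtp2, the paired T-cell-specific GTPase genes of chromosome 11, also differed widely between the controls. Tgtp1 stood at 40.004 and 5.99 CPM in control and at 4.89 and 5.41 CPM after extract. Tgtp2 stood at 8.03 and 1.58 CPM in control and at 1.37 and 1.74 CPM after extract. Control replicate 1 alone was high in each, 6.68-fold and 5.07-fold above replicate 2. Their log2 fold changes were -2.16 (SE 1.02) and -1.64 (SE 0.74), with edgeR adjusted p of 0.340 and 0.263. Of their 75-base stretches 77.2% and 81.4% occur in other genes, mainly in each other. Reads that aligned to several places were not counted to a gene, so the levels of both genes are uncertain. These are 2 of the 4 genes with the shared GAS and ISRE layout, and the other two are Igtp and Irgm2.

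The GBP genes of chromosome 3 were also highest in control replicate 1. Gbp2, which takes part in the lysis of pathogen vacuoles, stood at 30.7 and 5.49 CPM in control and at 5.17 and 6.55 CPM after extract. Gbp3 stood at 29.9 and 11.98 CPM in control and at 13.8 and 13.5 CPM after extract, and Gbp7 at 42.9 and 24.4 CPM and at 21.5 and 21.2 CPM. For Gbp2 and Gbp3 the other control library lay within or below the extract libraries. Their edgeR adjusted p were 0.393, 0.473 and 0.200, with log2 fold changes of -1.64 for Gbp2, -0.62 for Gbp3 and -0.66 for Gbp7.

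**Figure D2:**
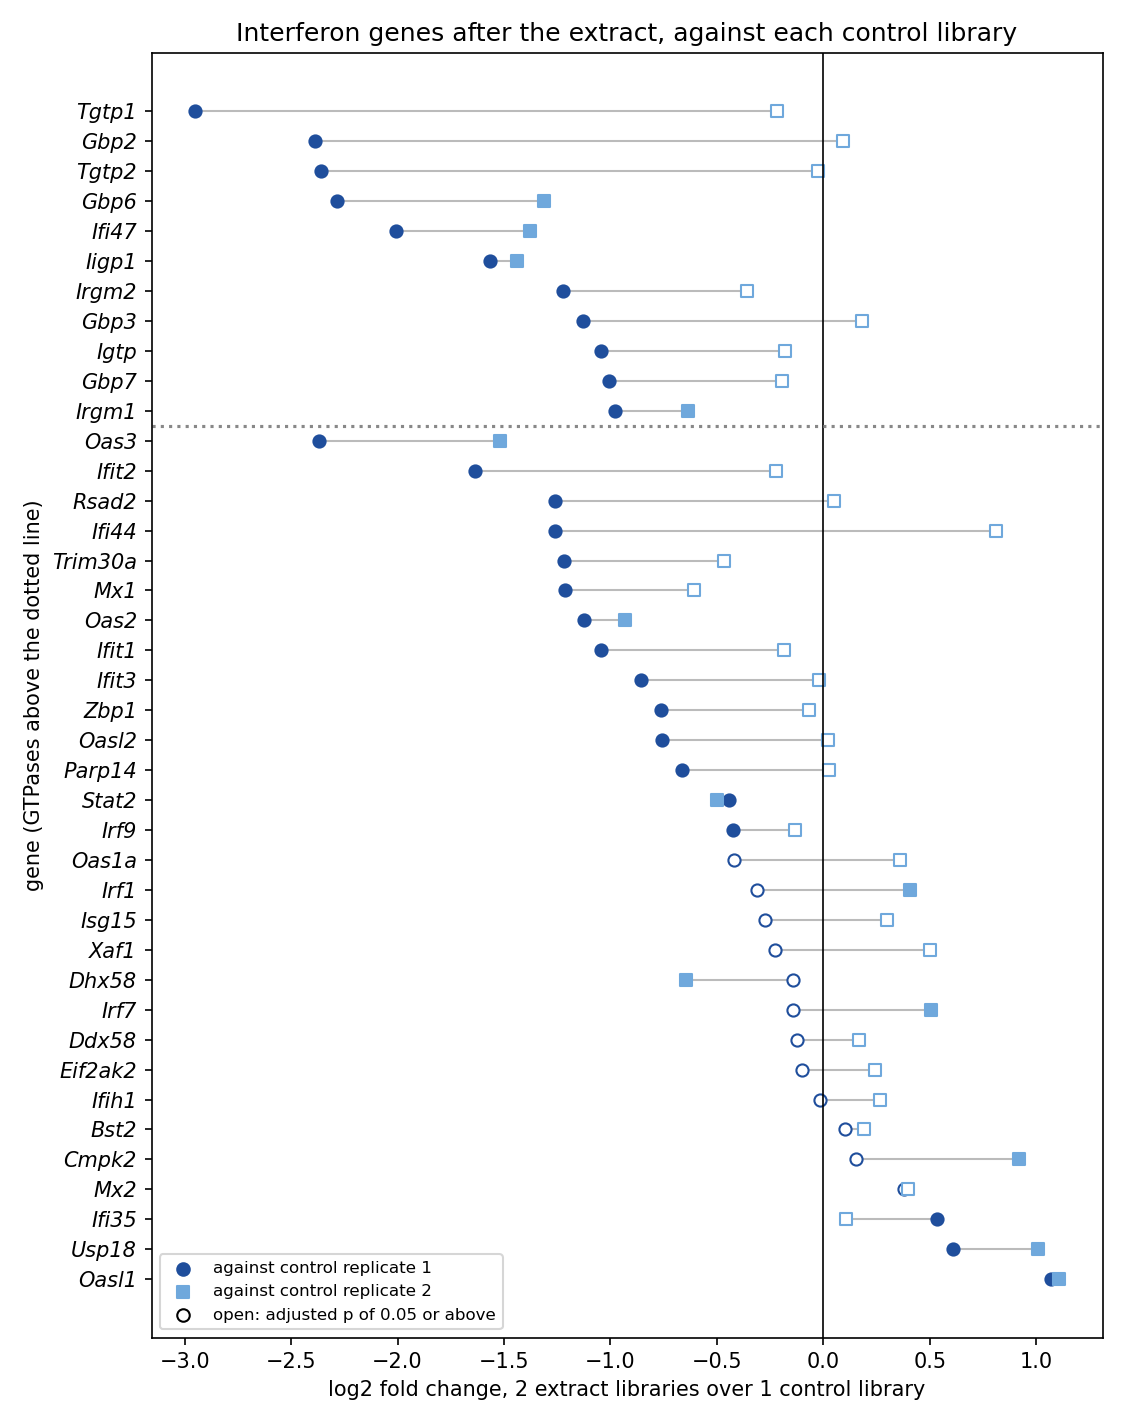
Log2 fold change of each of the 40 members for both extract libraries against control replicate 1 alone (circles) or control replicate 2 alone (squares), with filled symbols at an edgeR adjusted p under 0.05. All 11 GTPase circles lie left of 0 (-2.95 to -0.98). The squares run from -1.44 to -0.63 for Iigp1, Ifi47, Gbp6 and Irgm1, and from -0.36 to 0.18 for the other 7. Filling rests on the lone control library varying like the extract pair, an assumption that the counts went against.

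Each control library was therefore set against the extract pair by itself, with the lone library assumed to vary like the extract pair. The counts went against this assumption. Over all genes, the chi-square per degree of freedom was 101.6 between the control libraries and 25.0 between the extract libraries. Fits against 1 control library are therefore given by log2 fold changes alone. Against control replicate 1 the median was -1.57 for the GTPases and -0.42 for the type I antiviral genes, against 0.0094 over all genes tested. Against control replicate 2 it was -0.22 and 0.10, against 0.019 over all genes tested. There Iigp1 was at -1.44, Ifi47 at -1.38, Gbp6 at -1.31 and Irgm1 at -0.63, and the other 7 GTPases ran from -0.36 to 0.18. Stat2, Oas2 and Oas3 had log2 fold changes of -0.50, -0.93 and -1.52 against control replicate 2, and of -0.44, -1.12 and -2.37 against control replicate 1. Usp18 and Oasl1 were at 1.01 and 1.11 against control replicate 2, and at 0.61 and 1.07 against control replicate 1. The sign depended on the control library for 14 members, of which 2 were GTPases (Gbp2 and Gbp3), and each of the 14 was below control replicate 1 and above control replicate 2. The share of all genes whose sign depended on the control library was not computed. With extract replicate 1 left out 2 GTPases were lower (Iigp1 and Ifi47), where 0.929% of all genes were, and the same 2 genes without extract replicate 2, where 1.17% were. In these fits 0 and 1 members were higher, against 1.61% and 2.15% of all genes.

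Transcription factors and feedback genes were mixed. Usp18 removes Isg15 from proteins and damps type I interferon receptor signalling. On chromosome 6 (121245906 to 121270917), it stood at 14.1 and 10.6 CPM in control and at 20.7 and 22.1 CPM after extract. The extract libraries lay above both controls, and Usp18 rose 1.73-fold (log2 fold change 0.79, SE 0.19, edgeR adjusted p = 0.0497). It stood close to the threshold, with an adjusted p of 0.232 and 0.315 when extract replicate 1 or 2 was dropped. Stat2, a subunit of the type I complex, stood at 74.2 and 76.9 CPM in control and at 57.7 and 51.2 CPM after extract. Its control libraries had a ratio of 0.964 and the groups did not overlap, but the log2 fold change of -0.47 (SE 0.14) did not pass the threshold (edgeR adjusted p = 0.0903).

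Irf7, the factor that amplifies interferon production, stood at 64.3 and 40.9 CPM in control and at 56.4 and 59.9 CPM after extract (log2 fold change 0.14, edgeR adjusted p = 0.760). Irf1, which drives many interferon gamma targets, stood at 55.1 and 33.3 CPM in control and at 41.4 and 47.1 CPM after extract. In both genes the extract libraries lay between the controls. Irf9, the DNA-binding subunit of the type I complex, stood at 47.0 and 38.3 CPM in control and at 32.1 and 37.7 CPM after extract.

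Of the 5 sensors of foreign nucleic acid, 0 passed the threshold and 0 had an unadjusted p under 0.05 in edgeR's test, where 11.2% of all genes tested were lower and 12.3% higher at that unadjusted p. DESeq2's Wald test, which called 6.91% of its genes higher and 6.1% lower, also called 0 of the 5. Ifih1 (MDA5), a sensor of long double-stranded RNA, stood at 45.2 and 37.0 CPM in control and at 45.3 and 43.9 CPM after extract. Ddx58 (RIG-I), a sensor of RNA ends, stood at 38.2 and 31.2 CPM in control and at 38.2 and 31.96 CPM after extract. The groups overlapped in both genes, with log2 fold changes of 0.12 (SE 0.15) and 0.01 (SE 0.17). Eif2ak2 (PKR), a kinase that halts translation, stood at 22.3 and 17.6 CPM in control and at 23.3 and 18.4 CPM after extract. Zbp1, a sensor that can trigger cell death, stood at 22.7 and 14.0 CPM in control and at 13.5 and 13.2 CPM after extract. Its log2 fold change was -0.46 (edgeR adjusted p = 0.323). Dhx58 (LGP2), a modulator of both RNA helicases, stood at 10.4 and 14.7 CPM in control and at 8.67 and 10.1 CPM after extract, and was 1 of 3 members that were lower in control replicate 1 than in replicate 2. The log2 fold change of Dhx58 was -0.41 (edgeR adjusted p = 0.346), and in both Zbp1 and Dhx58 the extract libraries lay below both controls.

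Ifit genes, whose proteins block translation of viral RNA, followed the pattern of the controls. Ifit3 stood at 26.8 and 14.9 CPM in control and at 13.5 and 16.01 CPM after extract (log2 fold change -0.50, edgeR adjusted p = 0.361). Ifit1 stood at 24.5 and 13.5 CPM in control and at 11.6 and 12.2 CPM after extract, and Ifit2 at 12.3 and 4.61 CPM and at 3.62 and 4.28 CPM. Control replicate 1 was the high library in all 3 genes. Isg15, a ubiquitin-like modifier, stood at 19.01 and 12.8 CPM in control and at 15.2 and 16.2 CPM after extract, between the controls (log2 fold change -0.02, edgeR adjusted p = 0.973). Of the 75-base stretches of Ifit3, 41.1% also occur in Ifit3b.

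The 2′-5′ oligoadenylate synthetase (OAS) family held both directions. Oasl1, an OAS-like protein without synthetase activity that restrains translation of Irf7, rose. On chromosome 5 (114923143 to 114937911), it stood at 11.3 and 10.97 CPM in control and at 26.5 and 20.8 CPM after extract. Its controls were nearly equal and the extract libraries lay above both, a 2.12-fold rise (log2 fold change 1.09, SE 0.18, edgeR adjusted p = 0.0151), with an adjusted p of 0.168 without extract replicate 1. Oas3, which makes the 2′-5′ oligoadenylates that activate RNase L, fell. It lies on the same chromosome (120753098 to 120777684) and stood at 178 and 61 counts in control and at 31 and 34 counts after extract.

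In CPM, Oas3 went from 3.71 and 2.05 to 0.719 and 0.714, with no overlap (log2 fold change -2.01, SE 0.47, edgeR adjusted p = 0.0479). This was lost in 6 of 14 alternative fits, among them both that leave out 1 extract library (0.272 and 0.255). Oas2 stood at 7.13 and 6.23 CPM in control and at 2.25 and 4.26 CPM after extract, and Oas1a at 7.13 and 4.14 CPM and at 5.89 and 4.74 CPM. Oasl2 stood at 13.6 and 7.91 CPM in control and at 7.95 and 8.12 CPM after extract (log2 fold change -0.43, edgeR adjusted p = 0.434). In Oas2 the extract libraries lay below both controls, while Oasl2 was high in control replicate 1 alone.

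**Figure D3:**
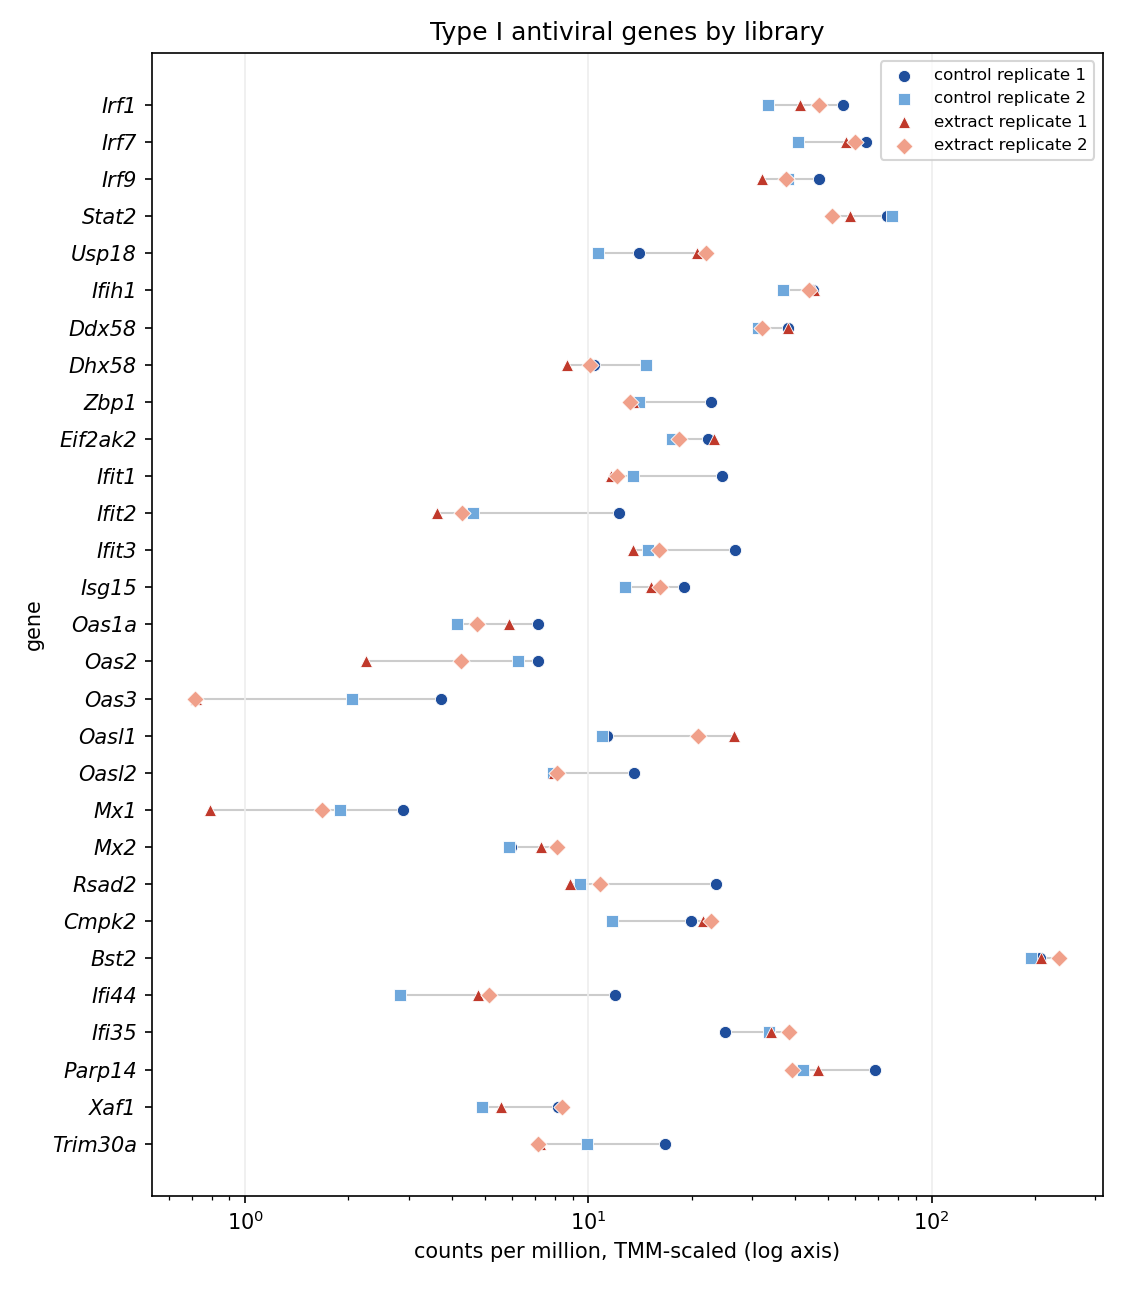
Level of the 29 type I antiviral genes in each library, in TMM-scaled CPM on a log axis, with 1 point per library and a grey line over the range. Both extract points lie right of both control points for Oasl1 and Usp18 and left of them for Oas3, while for Ifit1, Ifit2, Rsad2 and Ifi44 control replicate 1 stands apart to the right.

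Antiviral effectors of membranes and nucleotides showed no call. Bst2 (tetherin), which holds budding virus at the cell surface, stood at 207 and 194 CPM in control and at 208 and 235 CPM after extract (log2 fold change 0.14, SE 0.14, edgeR adjusted p = 0.609). Cmpk2, a mitochondrial nucleotide kinase, stood at 19.9 and 11.7 CPM in control and at 21.5 and 22.8 CPM after extract (log2 fold change 0.48, edgeR adjusted p = 0.330). Rsad2 (viperin), its neighbour in the genome, makes a chain-ending nucleotide. It stood at 23.6 and 9.46 CPM in control and at 8.83 and 10.8 CPM after extract. The neighbours thus differed in the order of the libraries, with extract above both controls in Cmpk2 and next to control replicate 2 in Rsad2.

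The Mx proteins are dynamin-like GTPases that trap viral capsids or nucleoproteins. Mx1 stood at 2.88 and 1.89 CPM in control and at 0.788 and 1.68 CPM after extract, and Mx2 at 5.94 and 5.86 CPM and at 7.30 and 8.12 CPM. Neither passed the threshold (edgeR adjusted p of 0.331 and 0.358), and the extract libraries lay below both controls in Mx1 and above both in Mx2.

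Among the remaining antiviral genes, Ifi35, a regulator of RIG-I signalling, stood at 25.1 and 33.7 CPM in control and at 34.1 and 38.4 CPM after extract (log2 fold change 0.30, edgeR adjusted p = 0.380). Parp14, a mono-ADP-ribosyltransferase, stood at 68.3 and 42.1 CPM in control and at 46.6 and 39.3 CPM after extract (log2 fold change -0.36, edgeR adjusted p = 0.441). Trim30a, a ubiquitin ligase of the tripartite motif family, stood at 16.7 and 9.90 CPM in control and at 7.21 and 7.14 CPM after extract. Only control replicate 1 was high in Parp14, and the extract libraries of Trim30a lay below both controls. Ifi44 stood at 11.9 and 2.83 CPM in control and at 4.78 and 5.14 CPM after extract, and the apoptosis-linked Xaf1 at 8.17 and 4.91 CPM and at 5.56 and 8.35 CPM. Ifi44 had the widest gap between the controls among the type I antiviral genes, 4.22-fold, and the extract libraries lay between them.

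Per kilobase of exon (RPKM, from GENCODE exon lengths), levels can be set beside each other across genes. Bst2 was the highest member in each library, at 229 and 215 RPKM in control and 230 and 261 RPKM in extract libraries. Iigp1 came next at 94.3 and 86.0 RPKM in control and 28.9 and 34.6 RPKM in extract libraries. Igtp was next in order at 53.9 and 29.6 RPKM and at 23.8 and 28.4 RPKM. In control libraries Iigp1 and Igtp did not overlap, while in extract libraries the higher Igtp value was just under the lower Iigp1 value. Ifi47 went from place 6 of 40 in the mean of the controls to 15 in the mean of the extract libraries, Gbp6 from 21 to 33, and Oasl1 from 25 to 10. Oas3 was last in both, at 0.525 and 0.290 RPKM in control and 0.102 and 0.101 RPKM in extract libraries.

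**Figure D4:**
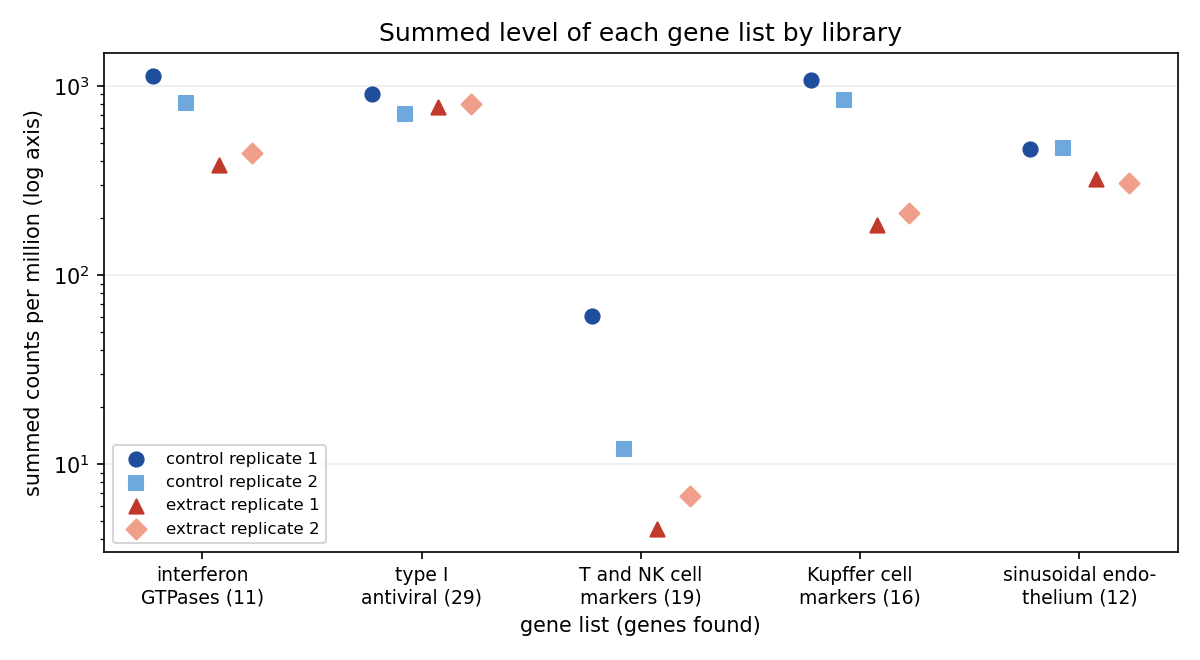
Summed level of 5 gene lists in each library, in TMM-scaled CPM on a log axis. T and NK cell markers are highest in control replicate 1 (60.7 CPM, against 4.54 to 12.1 CPM in the others). Kupffer cell markers are high in both controls (1076 and 843 CPM) and highest in replicate 1. The type I antiviral sum is also highest in control replicate 1 (908 CPM, against 708 to 800 CPM in the others).

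Some marker lists of other liver cells moved with these genes and others did not, and their part in the results was not tested. T and NK cell markers, from the cells that make interferon gamma, summed to 60.7 and 12.1 CPM in the control libraries and to 4.54 and 6.80 CPM in the extract libraries. Control replicate 1 was the highest library for 16 of the 17 tested markers, against 29.02% of all genes tested. Eomes alone, of the 19 found, was at 0 in any library (control replicate 2). By edgeR 0 of 17 passed the threshold, with 11 lower at an unadjusted p under 0.05 (11.2% of all genes tested). The median log2 fold change of the 17 was -2.48, and -1.17 with control replicate 1 left out. Kupffer cell markers, from the resident macrophages, summed to 1076 and 843 CPM in control and to 184 and 212 CPM after extract. Of the 16, 13 were lower, where 3.63% of all genes tested were, and none was at 0. Control replicate 1 was the highest library for 14 of the 16 here too. Their median log2 fold change was -2.65, and -2.27 with control replicate 1 left out. Sinusoidal endothelial markers summed to 465 and 466 CPM in control and to 321 and 306 CPM after extract. Of these 12 markers, 7 were lower (3.63% of all genes tested). Dendritic cell markers summed to 32.2 and 20.7 CPM in control and to 27.7 and 25.2 CPM after extract. Of the 7 tested, 0 passed the threshold, with a median log2 fold change of 0.17. Monocyte and recruited macrophage markers summed to 205 and 184 CPM in control and to 161 and 139 CPM after extract. Of these 14 markers, 3 were lower (3.63% of all genes tested) and 1 was higher (4.91%). Much of this sum was Lyz2, at 107 and 87.9 CPM in control and at 54.6 and 35.7 CPM after extract. The list's median log2 fold change was 0.17, with 7 genes below 0 and 7 above. B and plasma cell markers summed to 19.4 and 8.72 CPM and to 5.49 and 6.95 CPM, and neutrophil markers to 12.5 and 3.84 CPM and to 3.55 and 4.45 CPM, with control replicate 1 again the highest. Of the 11 neutrophil markers, only 4 had enough counts to be tested. At 0 were 3 of the 11 in control replicate 2, 2 in extract replicate 1 and 5 in extract replicate 2. Mpo was at 0 in all 3 of these libraries.

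The sum of the 11 GTPases was 1130.5 and 812 CPM in control and 380 and 441 CPM after extract. That of the 29 type I antiviral genes was 908 and 708 CPM in control and 769 and 800.2 CPM after extract. The extract sums thus lay below both controls for the GTPases and between the controls for the type I antiviral genes. Iigp1 made up the largest share of the GTPase sum, and Bst2 of the other.

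Other genes of the pathway were read from lists that hold no member. Among 14 interferon ligand genes, 12 had 0 counts in all 4 libraries, which allows up to 0.0625 to 0.101 CPM (3 counts, counting error only). Interferon gamma (Ifng) had 15 and 0 counts in control and 0 and 1 counts after extract, and Ifnk had 11 and 3 counts and 0 and 1 counts. None had enough counts for the filter of the test, and where other fits let Ifng or Ifnk in, neither was called. Ifng reads came almost all from control replicate 1.

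Of 6 interferon receptor genes, 0 passed the threshold, with 2 lower and 1 higher at an unadjusted p under 0.05 (11.2% and 12.3% of all genes tested) and a median log2 fold change of -0.46. DESeq2's Wald test called Ifnar2 lower (adjusted p = 0.0433) and Ifnlr1, of the interferon lambda receptor, higher (0.0454). Ifnar1 stood at 58.4 and 52.2 CPM in control and at 41.3 and 39.1 CPM after extract (log2 fold change -0.46, SE 0.14, edgeR adjusted p = 0.0958). Ifnar2 stood at 77.7 and 72.5 CPM in control and at 50.8 and 56.2 CPM after extract (log2 fold change -0.49, SE 0.14, edgeR adjusted p = 0.0823). In both type I receptor genes the extract libraries lay below both controls. The interferon gamma receptor gene Ifngr1 (log2 fold change -0.47, edgeR adjusted p = 0.233) and Il10rb, shared by interferon lambda (-0.46, 0.402), did not pass.

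Among 12 genes of JAK-STAT transduction and its inhibitors, 1 rose and 0 fell, where 4.91% of all genes tested rose and 3.63% fell. Socs3, a feedback inhibitor of gp130 cytokine signalling, stood at 9.96 and 7.17 CPM in control and at 25.7 and 24.1 CPM after extract (log2 fold change 1.53, SE 0.20, edgeR adjusted p = 0.00749). Neither Tyk2, a receptor kinase gene (log2 fold change -0.34, edgeR adjusted p = 0.305), nor the phosphatase gene Ptpn6 (-0.40, 0.136) passed the threshold.

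Of 17 adaptors and interferon regulatory factors, 3 fell and 0 rose, where 3.63% of all genes tested fell and 4.91% rose. Irf5, a factor of macrophage activation, stood at 28.9 and 24.3 CPM in control and at 5.54 and 6.55 CPM after extract (log2 fold change -2.14, SE 0.18, edgeR adjusted p = 0.00158). Tlr7, a receptor for single-stranded RNA in immune cells, fell by 1.84 on the log2 scale (edgeR adjusted p = 0.0236), and Ticam1, the adaptor of Tlr3, by 0.92 (0.0273). The adaptor Mavs, through which RIG-I and MDA5 signal, was at -0.42 (0.111).

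Of 12 tested GTPases outside the members, 3 fell and 0 rose, where 3.63% of all genes tested fell and 4.91% rose. Their median log2 fold change was -1.52. Gbp2b stood at 7.34 and 3.13 CPM in control and at 0.348 and 0.0840 CPM after extract (log2 fold change -4.61, SE 0.75, edgeR adjusted p = 0.0166). Gm4951, a predicted interferon GTPase gene, stood at 152 and 131 CPM in control and at 67.8 and 74.0 CPM after extract (log2 fold change -0.995, SE 0.14, edgeR adjusted p = 0.0105). Gbp8 also fell (-2.26, edgeR adjusted p = 0.0187), and Gbp10 did not pass (-2.51, 0.0823). The median log2 fold change of the 12 was -0.73 against control replicate 2 alone and -2.11 against control replicate 1 alone. Control replicate 1 was the highest library for 11 of the 12, against 29.02% of all genes tested.

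Of 81 other interferon-induced genes tested, 9 fell and 1 rose, where 3.63% of all genes tested fell and 4.91% rose. Their median log2 fold change was -0.40. Those that fell include Ifitm1, which blocks viral entry (-1.22, edgeR adjusted p = 0.0187), Ifi204, of the DNA-sensing family (-1.41, 0.0321), and Samhd1, a dNTP hydrolase (-0.98, 0.0225). Ifi27l2b rose, from 5.90 and 3.20 CPM to 21.3 and 30.6 CPM (log2 fold change 2.50, edgeR adjusted p = 0.0109).

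**Figure D5:**
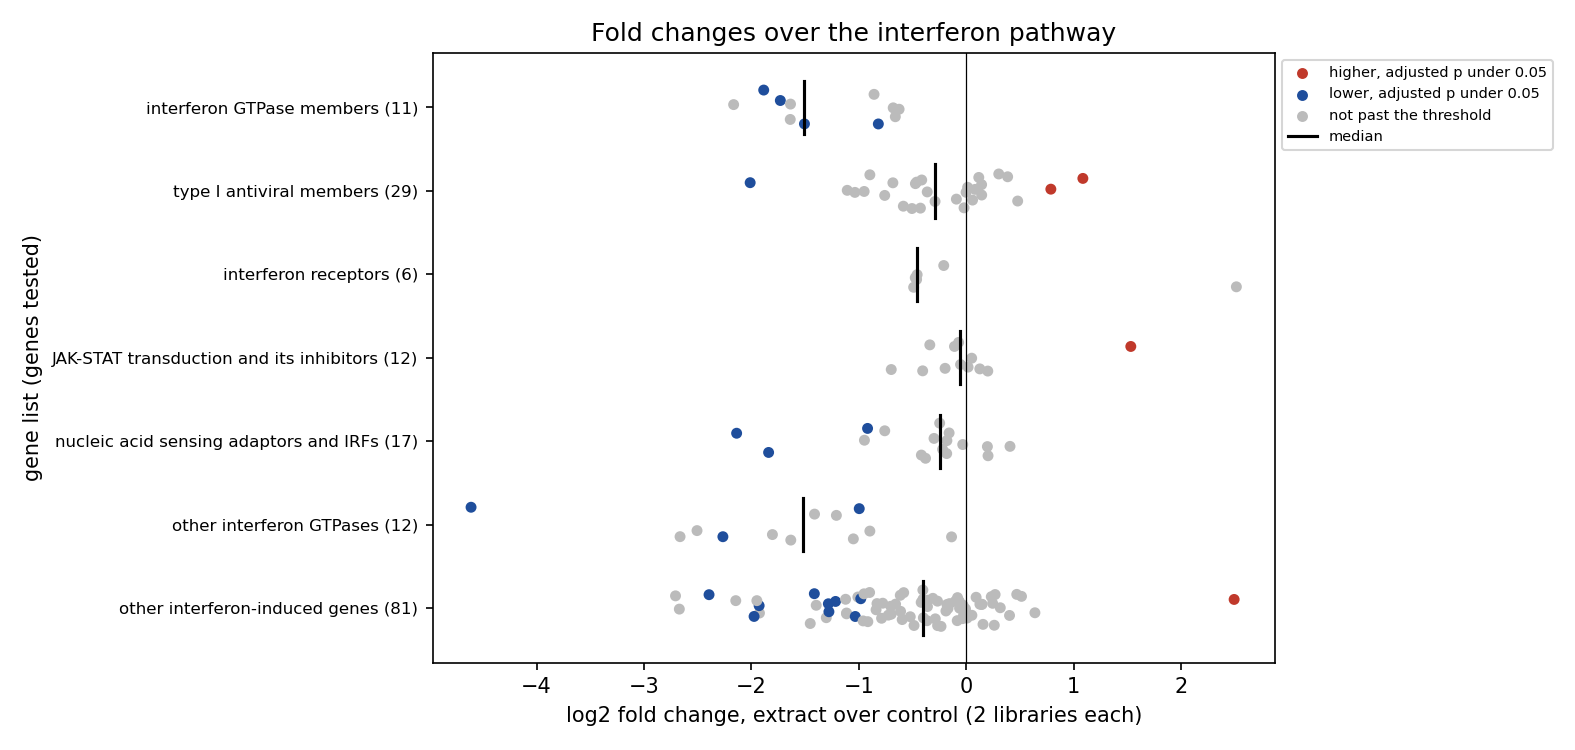
Log2 fold change, extract over control, of each tested gene on 7 lists, with 1 point per gene, the median as a black bar and genes past the edgeR threshold in colour. Both GTPase lists lie left of 0 (medians -1.51 and -1.52), while the type I antiviral members (median -0.29) and the JAK-STAT genes (-0.06) centre near it.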

How the data were processed

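Total RNA of whole liver was sequenced on an Illumina instrument, per the labels' protocols, in 2 control and 2 extract libraries. The deposited files hold raw read counts per gene, which the authors made with CASAVA 1.8, HISAT2 2.1.0 and HTSeq on mm10, per the submitters' processing notes. No source used here states the annotation, the strand setting or the read length. The 5 rows that name no gene were left out of library sizes and tests. Of these, reads that aligned to several places came to 5.18% to 9.03% and reads in no gene to 8.40% to 10.2%, each as a share of all records in the file.

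Genes were filtered with filterByExpr, scaled by TMM and tested with edgeR 4.0.16 (robust quasi-likelihood F test, R 4.3.3), with Benjamini-Hochberg adjustment over the 13963 genes tested and a threshold of 0.05. Standard errors are those the fit implies, and the common biological variation was 22.3%. DESeq2 1.42.0, limma 3.58.1 (voom), other scalings and filters, a replicate block and the leaving out of each library were alternatives. The scripts were tested on simulated data with 2 libraries per group. Of 50 genes each, 2 were recovered at a 1.5-fold change, 13 at 2-fold and 36 at 4-fold. A gene that did not pass the threshold may thus still have changed. A count of 1 read was worth 0.0208 to 0.0337 CPM. The members and lists were chosen with earlier results of these data known. A written rule picks the genes given with fold changes: all GTPases, members past the threshold, the 2 members with the highest mean CPM in each role, and in each pathway list up to 4 genes with the smallest p-values at a mean of at least 1 CPM, with up to 2 called genes of the opposite direction. Other members are given mainly by their levels. The fold changes or adjusted p given for Oas2, Zbp1, Dhx58, Mx1 and Mx2 fall outside the rule. Ifnlr1, Eomes and Mpo also fall outside the rule and were named after their values were seen. Of 306 listed symbols 4 were not matched. Promoters came from RefSeq GRCm38.p6, and exon lengths and shared stretches from GENCODE vM21, whose build is mm10. A gene that the rule picks is not reported here.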

Additional observations from a re-analysis of the deposited data

How the results depend on the processing

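Iigp1 passed the threshold in all 15 fits, Ifi47 and Oasl1 in 14, Gbp6 in 13, Irgm1 in 12, and Usp18 and Oas3 in 9. Over 45 named genes and 14 alternatives, 552 of 630 values kept their direction and side of the threshold, 33 were no longer past it, 31 newly passed it and 14 changed sign. The cause of these changes was not tested. Every member had counts in each library, and the lowest were those of Oas3 after extract (31 and 34), so that counting error weighs most there.

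Leaving out 1 library gave 233 to 1826 genes higher (686 with all libraries) and 134 to 1782 lower (507). Members higher ranged from 0 to 5 and lower from 2 to 25, with medians from -0.81 to 0.0015. GTPases lower ranged from 2 to 11, with medians from -1.66 to -0.22. Type I antiviral genes higher ranged from 0 to 5 and lower from 0 to 14, with medians from -0.42 to 0.10. Other pathway genes higher (2 with all libraries) ranged from 2 to 10 and lower (15) from 2 to 63, with medians from -0.61 to -0.16. Among the genes given with fold changes, signs that changed over these fits were those of Gbp2 (-2.39 to 0.095), Gbp3 (-1.13 to 0.18), Oasl2 (-0.76 to 0.022), Parp14 (-0.67 to 0.028) and Isg15 (-0.27 to 0.30), positive without control replicate 1, Irf7 (-0.14 to 0.51) and Ifih1 (-0.015 to 0.27), negative without control replicate 2, and Ddx58 (-0.13 to 0.17), negative without control replicate 2 or extract replicate 1. Isg15 was also positive without extract replicate 1 (0.017).

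DESeq2's Wald test called 904 genes (6.1%) lower and 1024 (6.91%) higher. It called 2 type I antiviral genes lower, and 5 other pathway genes higher and 27 lower. Members higher, all type I antiviral genes, numbered 1 under upper-quartile scaling, limma-voom, no robust step and the strict filter. Over all genes these fits called 658, 682 and 664 of 13963 and 649 of 12185 higher. Type I antiviral genes lower numbered 0 under total counts, limma-voom, no robust step and the strict filter, and 2 with no filter. Over all genes, 474 and 482 of 13963 were lower under limma-voom and no robust step. Under the strict filter 476 of 12185 were lower, and with no filter 716 of 17942. Total counts gave 3 members lower, where 2.42% of all genes were. Among other pathway genes they gave 4 higher (6.73% of all genes) and 7 lower, with a median of -0.24. Among the same genes, signs also changed for Ddx58 under upper-quartile scaling (-0.025) and without the 20 most abundant genes (-0.0010), and for Isg15 under total counts (0.14).

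The replicate numbers share only a number. Deviations of same-numbered libraries from their group means correlated at 0.157 over genes. With 2 libraries per group the deviations mirror each other, so both pairs give the same value by construction. With the replicate block 902 of 13963 genes were higher and 682 lower, and 2 of 40 members were higher and 4 lower. Ifi47 was at an edgeR adjusted p of 0.0769, and Isg15 was at 0.0074 on the log2 scale.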
